A study of Mus musculus with 9 samples.

Results

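The genes described here were Mfsd2a and 6 genes of caveolae and vesicle traffic, Cav1, Cav2, Plvap, Ehd4, Dnm2 and Cltc, taken by name from a count table of 23420 genes. They were read in all 9 libraries, with no threshold on measured values. The libraries came from endothelial cells sorted from mouse brain by FACS as CD31+ (an endothelial surface protein) and CD45- (absent from endothelium, present on leukocytes). There were 3 libraries each of APP/PS1xRIPK1KD, APP/PS1 and WT mice. APP/PS1 animals carry the APP/PS1 genotype used as an amyloid model of Alzheimer's disease. APP/PS1xRIPK1KD animals carry it together with the Ripk1 allele written RIPK1KD, an abbreviation the labels do not spell out, so both share the APP/PS1 background, and WT mice carry neither. All mice were labelled C57BL/6, male and 6 months old. Each library was made from 20000 sorted cells by Smart-seq2, a full-length cDNA method primed at the poly(A) tail. The labels name neither the promoter of the transgene nor pooling of animals, and they do not say whether replicates were separate sorts of separate litters, so p-values measure only the spread between these libraries.

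A brain capillary differs from most vessels in moving little cargo across its endothelium in vesicles. Caveolae are flask-shaped pits built from caveolins and a coat of cavins, and clathrin-coated pits take in receptors such as the transferrin receptor. Mfsd2a encodes a transporter that carries lysophosphatidylcholine with long-chain omega-3 fatty acids into the brain, and mice without it have more endothelial vesicles and a leaky barrier. Cav1 is required for caveolae, Cav2 assembles with Cav1, and Plvap forms the diaphragms of caveolae and fenestrae and is low in mature barrier endothelium. Ehd4 is an EHD-family ATPase of membrane traffic, Dnm2 is the GTPase that cuts vesicles from the membrane, and Cltc is the clathrin heavy chain.

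None of the 7 genes passed the test between any pair of genotypes, while their spread between libraries differed widely. In edgeR's quasi-likelihood test with Benjamini-Hochberg adjustment over all tested genes, 0 of 7 were called for APP/PS1 against WT, where 0.0225% of all tested genes were. For APP/PS1xRIPK1KD against APP/PS1 0 of 7 were called (0.00751% of all), and for APP/PS1xRIPK1KD against WT 0 of 7 (0.0375% of all). Levels are given as CPM, the count per 1000000 of a library total scaled by the trimmed mean of M-values (TMM). Plvap had a coefficient of variation of 41.9% over the 9 libraries, Cav2 27.4%, Mfsd2a 23.5%, Dnm2 16.2%, Cav1 11.7%, Ehd4 8.98% and Cltc 5.02%. Among the 1492 genes with a mean of at least 100 CPM the median was 13.0%, and 97.7% of them varied less than Plvap while 1.07% varied less than Cltc. All 7 genes passed the filter on low counts, as did 13317 genes in all.

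Library totals lay between 16263792 expected counts in APP/PS1 replicate 1 and 52413200 in APP/PS1 replicate 3, and Rn45s, the ribosomal RNA precursor, took 15.8% to 33.8% of them. The Rn45s share was 20.2% to 26.4% in APP/PS1xRIPK1KD, 15.8% to 28.6% in APP/PS1 and 29.6% to 33.8% in WT. Every WT library thus lay above all the others, and in comparisons with WT this share and genotype cannot be told apart. Its part in the levels of the 7 genes was not tested. Each of the 7 genes held at least 2189 expected counts in every library. The sort was rich in endothelial transcripts. Cldn5, the tight junction protein of the barrier, ranged over 5597 to 8458 CPM, and the leukocyte gene Ptprc (CD45) was at 0 in 6 libraries and at most 0.918 CPM. The summed levels of other marker lists were 26.1 to 82.5 CPM for 6 oligodendrocyte genes, 50.1 to 81.3 CPM for 6 microglial genes, 38.5 to 109.7 CPM for 8 astrocyte genes, 1.39 to 11.9 CPM for 6 neuronal genes, 0.606 to 4.48 CPM for 6 leukocyte genes and 1121 to 5496 CPM for 3 measured erythroid genes. Against the male label, replicates 1 and 2 of each genotype, 6 libraries in all, had Xist at 264 to 534 CPM. The 3 replicate 3 libraries had Y-linked transcripts summing to 150 to 185 CPM, with Xist at most 4.78 CPM. Each genotype held the same mix of these 2 kinds of library. Ripk1 had 31.4 to 44.9 CPM in APP/PS1xRIPK1KD, 40.9 to 75.3 CPM in APP/PS1 and 34.9 to 48.1 CPM in WT libraries, so its level did not separate the genotypes and is no check of the labels.

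Mfsd2a had 338, 408 and 285 CPM in APP/PS1xRIPK1KD replicates 1, 2 and 3, 375, 315 and 300 CPM in APP/PS1, and 215, 466 and 259 CPM in WT. The WT libraries held both the lowest and the highest level of the 9, so the groups overlapped throughout. The means were 344 ± 61.4 CPM in APP/PS1xRIPK1KD, 330 ± 39.6 CPM in APP/PS1 and 313 ± 134 CPM in WT (SD, n = 3 each). The log2 fold change was 0.07 ± 0.24 (SE) for APP/PS1 against WT, 0.06 ± 0.24 for APP/PS1xRIPK1KD against APP/PS1 and 0.13 ± 0.24 for APP/PS1xRIPK1KD against WT. Their 95% intervals ran over 0.730 to 1.52 fold, 0.723 to 1.50 fold and 0.761 to 1.58 fold, in that order. Changes of Mfsd2a within those bounds were not excluded by these libraries. The intervals are not adjusted for the number of genes tested and are not limits of detection. These 3 comparisons share libraries, and their values for one gene are therefore not independent of each other. The Mfsd2a gene lies on chromosome 4 (GRCm38, 122946850 to 122961188, minus strand, GENCODE M21).

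Cav1 had 835, 855 and 1077 CPM in APP/PS1xRIPK1KD libraries, 979, 997 and 877 CPM in APP/PS1 and 809, 758 and 993 CPM in WT. Cav2 had 396, 394 and 390 CPM in APP/PS1xRIPK1KD, 420, 567 and 264 CPM in APP/PS1 and 244, 278 and 467 CPM in WT. For both caveolins the levels of all groups overlapped, and Cav2 was nearly equal in the APP/PS1xRIPK1KD libraries (393 ± 2.85 CPM) while it spread over 417 ± 151 CPM in APP/PS1 and 330 ± 120 CPM in WT (SD, n = 3 each). The log2 fold change of Cav1 was 0.16 ± 0.14 (SE) for APP/PS1 against WT, -0.04 ± 0.14 for APP/PS1xRIPK1KD against APP/PS1 and 0.11 ± 0.14 for APP/PS1xRIPK1KD against WT. That of Cav2 was 0.34 ± 0.27 for APP/PS1 against WT, -0.08 ± 0.27 for APP/PS1xRIPK1KD against APP/PS1 and 0.25 ± 0.27 for APP/PS1xRIPK1KD against WT, with adjusted p-values of 0.908 or more. Leaving out each library in turn, the APP/PS1 against WT value ran over 0.08 (without WT replicate 2) to 0.28 (without WT replicate 3) for Cav1 and over 0.05 (without APP/PS1 replicate 2) to 0.67 (without WT replicate 3) for Cav2. Within the 6 libraries with Xist (replicates 1 and 2) the edgeR values for APP/PS1 against WT were 0.33 for Cav1 (adjusted p 0.359) and 0.92 for Cav2 (adjusted p 0.188). In those 6 libraries genotype coincided with a property of the whole library given below, the slope of expression on transcript GC. The 3 libraries with Y-linked transcripts are 1 per genotype, and there Cav2 had 390 CPM in APP/PS1xRIPK1KD, 264 CPM in APP/PS1 and 467 CPM in WT. The genes are neighbours on the plus strand of chromosome 6, Cav2 at 17281185 to 17289115 and Cav1 at 17306335 to 17341452, with 17219 bases between them.

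The promoters of 4 genes are shown as a description of sequence only. These genes are the transporter, the neighbouring caveolins and Dnm2, whose level ran opposite to that of Cav1 over libraries. No expression value was tested against these promoters. They are RefSeq windows of build GRCm38.p6, 250 bases before to 50 after the gene's start, 5′ to 3′ on the gene's strand. A window was found for 6 of the 7 genes, all but Plvap, and of 2 windows for Cav1 the one at its annotated start is shown. Capitals mark matches, on either strand, to the letters of 7 motifs that are spelled out after the sequences. The windows are chr4:122961139-122961438 (minus strand) for Mfsd2a, chr6:17306085-17306384 (plus) for Cav1, chr6:17280935-17281234 (plus) for Cav2 and chr9:21424658-21424957 (plus) for Dnm2.
Mfsd2a: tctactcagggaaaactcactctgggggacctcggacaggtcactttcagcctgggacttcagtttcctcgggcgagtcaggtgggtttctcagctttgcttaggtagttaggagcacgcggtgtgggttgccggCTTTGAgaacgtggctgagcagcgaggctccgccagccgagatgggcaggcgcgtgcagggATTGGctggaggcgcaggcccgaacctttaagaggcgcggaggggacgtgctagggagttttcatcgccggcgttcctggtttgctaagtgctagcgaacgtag
Cav1: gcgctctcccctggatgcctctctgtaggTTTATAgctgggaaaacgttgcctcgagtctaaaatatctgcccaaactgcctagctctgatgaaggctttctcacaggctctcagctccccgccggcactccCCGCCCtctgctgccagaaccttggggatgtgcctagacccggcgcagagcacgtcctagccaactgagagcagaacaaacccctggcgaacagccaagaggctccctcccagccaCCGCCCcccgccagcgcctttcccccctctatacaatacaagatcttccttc
Cav2: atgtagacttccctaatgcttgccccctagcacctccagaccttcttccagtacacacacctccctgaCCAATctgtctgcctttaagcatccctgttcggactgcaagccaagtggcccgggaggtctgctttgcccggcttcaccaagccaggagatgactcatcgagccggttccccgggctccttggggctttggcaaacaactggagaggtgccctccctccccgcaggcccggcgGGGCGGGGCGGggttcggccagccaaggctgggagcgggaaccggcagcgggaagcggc
Dnm2: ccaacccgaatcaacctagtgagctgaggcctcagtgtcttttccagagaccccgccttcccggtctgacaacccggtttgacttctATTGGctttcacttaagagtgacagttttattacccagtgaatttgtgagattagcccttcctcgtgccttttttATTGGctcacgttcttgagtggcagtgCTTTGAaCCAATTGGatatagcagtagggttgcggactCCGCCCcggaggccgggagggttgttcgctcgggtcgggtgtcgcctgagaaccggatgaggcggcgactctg
The Mfsd2a window held the TCF/LEF letters at -115 and the CCAAT letters, on the opposite strand, at -54, positions being counted from the gene's start. Cav1 held the TATA letters on the opposite strand at -221 and GC boxes at -118 and -2, and Cav2 held CCAAT at -182 and 2 overlapping GC boxes at -9 and -4. Dnm2 held 4 CCAAT matches, of which those at -54 and -51 overlap on opposite strands, a GC box at -23 and TCF/LEF at -61. Of 32851 RefSeq windows of the same length, 37.4% held the CCAAT box, spelled CCAAT, and 35.7% held the GC box, spelled GGGCGG. The letters CTTTGA used for TCF/LEF factors were in 16.0% of windows, and the ETS core, spelled CCGGAA, was in 14.9%. The TATA box, searched as TATAAA, was in 13.6% of them. Letters for SOX factors (AACAAT) were in 10.7%, and those for forkhead factors, given as TGTTTAC, were in 3.65%. A match describes the letters only.

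Plvap had the widest spread, 579, 584 and 291 CPM in APP/PS1xRIPK1KD, 167, 237 and 369 CPM in APP/PS1 and 406, 588 and 269 CPM in WT. The means were 485 ± 168 CPM in APP/PS1xRIPK1KD, 258 ± 102 CPM in APP/PS1 and 421 ± 160 CPM in WT (SD, n = 3 each). Plvap lies on chromosome 8 (71497765 to 71511752, minus strand). The 2 lowest libraries of the 9 were APP/PS1, but the third APP/PS1 library lay above the lowest library of each other genotype. The log2 fold change was 0.91 ± 0.37 (SE) for APP/PS1xRIPK1KD against APP/PS1, an interval of 1.06 to 3.35 fold, with an edgeR p of 0.0345 and an adjusted p of 0.994. For APP/PS1 against WT it was -0.71 ± 0.37, an interval of 0.345 to 1.09 fold, with an edgeR p of 0.0856 and an adjusted p of 0.829. For APP/PS1xRIPK1KD against WT it was 0.20 ± 0.37, with an adjusted p of 0.997. The authors' deposited table for APP/PS1 against WT gave Plvap a log2 fold change of -0.70 with a p of 0.0409 and an FDR of 0.748. Leaving out each library in turn, the log2 fold change ran over 0.68 to 1.26 for APP/PS1xRIPK1KD against APP/PS1 and -1.06 to -0.39 for APP/PS1 against WT. In the 6 libraries with Xist alone the edgeR fit gave 1.53 for APP/PS1xRIPK1KD against APP/PS1, adjusted p 0.142, and -1.30 for APP/PS1 against WT, adjusted p 0.146. In those 6 libraries the sign of the GC slope, given below, also separated APP/PS1 from the other genotypes. The other 3 libraries are 1 per genotype and allow no test: Plvap had 291 CPM in APP/PS1xRIPK1KD, 369 CPM in APP/PS1 and 269 CPM in WT.

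In a bulk library fewer cells of a vessel type and less RNA per cell cannot be told apart, so the summed levels of marker lists are given by genotype, with 2-sided exact permutation p-values that cannot go below 0.1 for 3 against 3 libraries. The 7 genes for fenestrated or peripheral endothelium, which include Plvap itself and Ppap2b, summed to 764 to 1310 CPM in APP/PS1xRIPK1KD, 489 to 981 CPM in APP/PS1 and 728 to 1450 CPM in WT, with exact p-values of 0.2 for APP/PS1xRIPK1KD against APP/PS1 and 0.2 for APP/PS1 against WT. In that list Cd36 was at 0 in 4 libraries, and all 7 genes had a positive log2 fold change for APP/PS1xRIPK1KD against APP/PS1, with none past an adjusted p of 0.05. The median over all genes tested was -0.0034 there. In the same comparison 4 of the 7 were under an unadjusted edgeR p of 0.05 (4.78% of all genes) and 2 were without overlap (9.98% of all). For APP/PS1 against WT all 7 were negative, with 0 under that p (6.14% of all genes). Plvap itself averaged 485 of 1124 CPM of the sum in APP/PS1xRIPK1KD, 258 of 711 CPM in APP/PS1 and 421 of 1053 CPM in WT. The sum and these counts are therefore not independent of the Plvap values. The 7 choroid plexus genes, a tissue with fenestrated vessels, summed to 183 to 319 CPM in APP/PS1xRIPK1KD, 70.0 to 155 CPM in APP/PS1 and 55.9 to 90.2 CPM in WT, with an exact p of 0.1 for APP/PS1xRIPK1KD against APP/PS1 and 0.2 for APP/PS1 against WT. For APP/PS1xRIPK1KD against WT the exact p of this sum was 0.1, without overlap. Most of that sum was Ttr, at a mean of 222 CPM in APP/PS1xRIPK1KD, 104 CPM in APP/PS1 and 54.4 CPM in WT. Kcnj13 averaged 2.74 CPM in APP/PS1xRIPK1KD, 2.65 CPM in APP/PS1 and 0.209 CPM in WT, and Kl 5.85, 3.77 and 1.23 CPM in that order. Aqp1 averaged 11.1 CPM in APP/PS1xRIPK1KD, 13.2 CPM in APP/PS1 and 13.4 CPM in WT, Otx2 was at 0 in 5 libraries, and Folr1 and Clic6 were at 0 in 3 each. Of 6 choroid plexus genes tested for APP/PS1xRIPK1KD against WT, 5 were positive, 3 under an unadjusted edgeR p of 0.05 (6.18% of all genes), and 0 called. The 7 venous genes summed to 443 to 845 CPM in APP/PS1xRIPK1KD, 911 to 1059 CPM in APP/PS1 and 466 to 1806 CPM in WT, with an exact p of 0.1 for APP/PS1xRIPK1KD against APP/PS1 and 0.9 for APP/PS1 against WT. The 8 arterial genes summed to 534 to 1089 CPM in APP/PS1xRIPK1KD, 838 to 1050 CPM in APP/PS1 and 501 to 1393 CPM in WT, with exact p-values of 0.5 to 0.8. The 12 mural genes summed to 64.9 to 260 CPM in APP/PS1xRIPK1KD, 181 to 235 CPM in APP/PS1 and 10.5 to 56.3 CPM in WT, and both APP/PS1-bearing genotypes lay wholly above WT (exact p 0.1 each). For APP/PS1 against WT all 12 were positive, 8 under an unadjusted edgeR p of 0.05 (6.14% of all genes) and 2 called (0.0225%). For APP/PS1xRIPK1KD against WT 11 were positive, 8 under that p (6.18%) and 1 called (0.0375%). In the authors' deposited table their FDR for APP/PS1 against WT ran from 2.7e-11 (Vtn) to 0.888 (Cspg4). The 6 fibroblast genes summed to 2.06 to 7.26 CPM in APP/PS1xRIPK1KD, 6.82 to 13.4 CPM in APP/PS1 and 0.132 to 1.24 CPM in WT, with Lum at 0 in all 9 libraries and again both genotypes above WT (exact p 0.1 each). The 10 genes of a dissociation response summed to 842 to 1324 CPM in APP/PS1xRIPK1KD, 1108 to 2117 CPM in APP/PS1 and 739 to 1384 CPM in WT, with exact p-values of 0.2 to 0.9. All 10 had a positive log2 fold change for APP/PS1 against WT, 6 of them under an unadjusted edgeR p of 0.05 (6.14% of all genes). All 10 had a negative one for APP/PS1xRIPK1KD against APP/PS1, again 6 under that p (4.78% of all genes). For APP/PS1xRIPK1KD against WT 6 were positive and 4 negative, and none was called in any comparison. In the authors' deposited table, Fos had an FDR of 0.000186 for APP/PS1 against WT. The part of these cell types and of the dissociation response in the Plvap values was not tested.

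Ehd4 had 172, 174 and 171 CPM in APP/PS1xRIPK1KD, 138, 186 and 175 CPM in APP/PS1 and 169, 155 and 150 CPM in WT. The 3 APP/PS1xRIPK1KD libraries lay above the 3 WT libraries, by a gap of a few CPM. The log2 fold change there was 0.12 ± 0.13 (SE) with an adjusted p of 0.982 in the edgeR test. Ehd4 was the 1 gene of 7 whose libraries of these genotypes did not overlap, as 12% of all tested genes did not (6.05% wholly higher in APP/PS1xRIPK1KD). In the other comparisons 0 of 7 genes were without overlap, against 10.9% of all genes for APP/PS1 against WT and 9.98% for APP/PS1xRIPK1KD against APP/PS1. Dnm2 had 237, 247 and 169 CPM in APP/PS1xRIPK1KD, 188, 163 and 231 CPM in APP/PS1 and 247, 238 and 189 CPM in WT. Its log2 fold changes of -0.21 ± 0.18 (SE) for APP/PS1 against WT, 0.17 ± 0.18 for APP/PS1xRIPK1KD against APP/PS1 and -0.04 ± 0.18 for APP/PS1xRIPK1KD against WT did not pass the test. In the 6 libraries with Xist alone they were -0.47 for APP/PS1 against WT (edgeR adjusted p 0.303) and 0.46 for APP/PS1xRIPK1KD against APP/PS1 (adjusted p 0.439). There the APP/PS1 libraries also differed from the other genotypes in the sign of the GC slope, given below. Cltc was the steadiest, with 298, 296 and 285 CPM in APP/PS1xRIPK1KD, 301, 284 and 269 CPM in APP/PS1 and 270, 288 and 261 CPM in WT. Its 95% intervals ran over 0.884 to 1.23 fold, 0.871 to 1.21 fold and 0.909 to 1.27 fold, the narrowest of the 7 genes. Ehd4 lies on chromosome 2 (120089175 to 120154606, minus strand), Dnm2 on chromosome 9 (21424908 to 21507759, plus strand) and Cltc on chromosome 11 (86694351 to 86757565, minus strand).

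**Figure D1:**
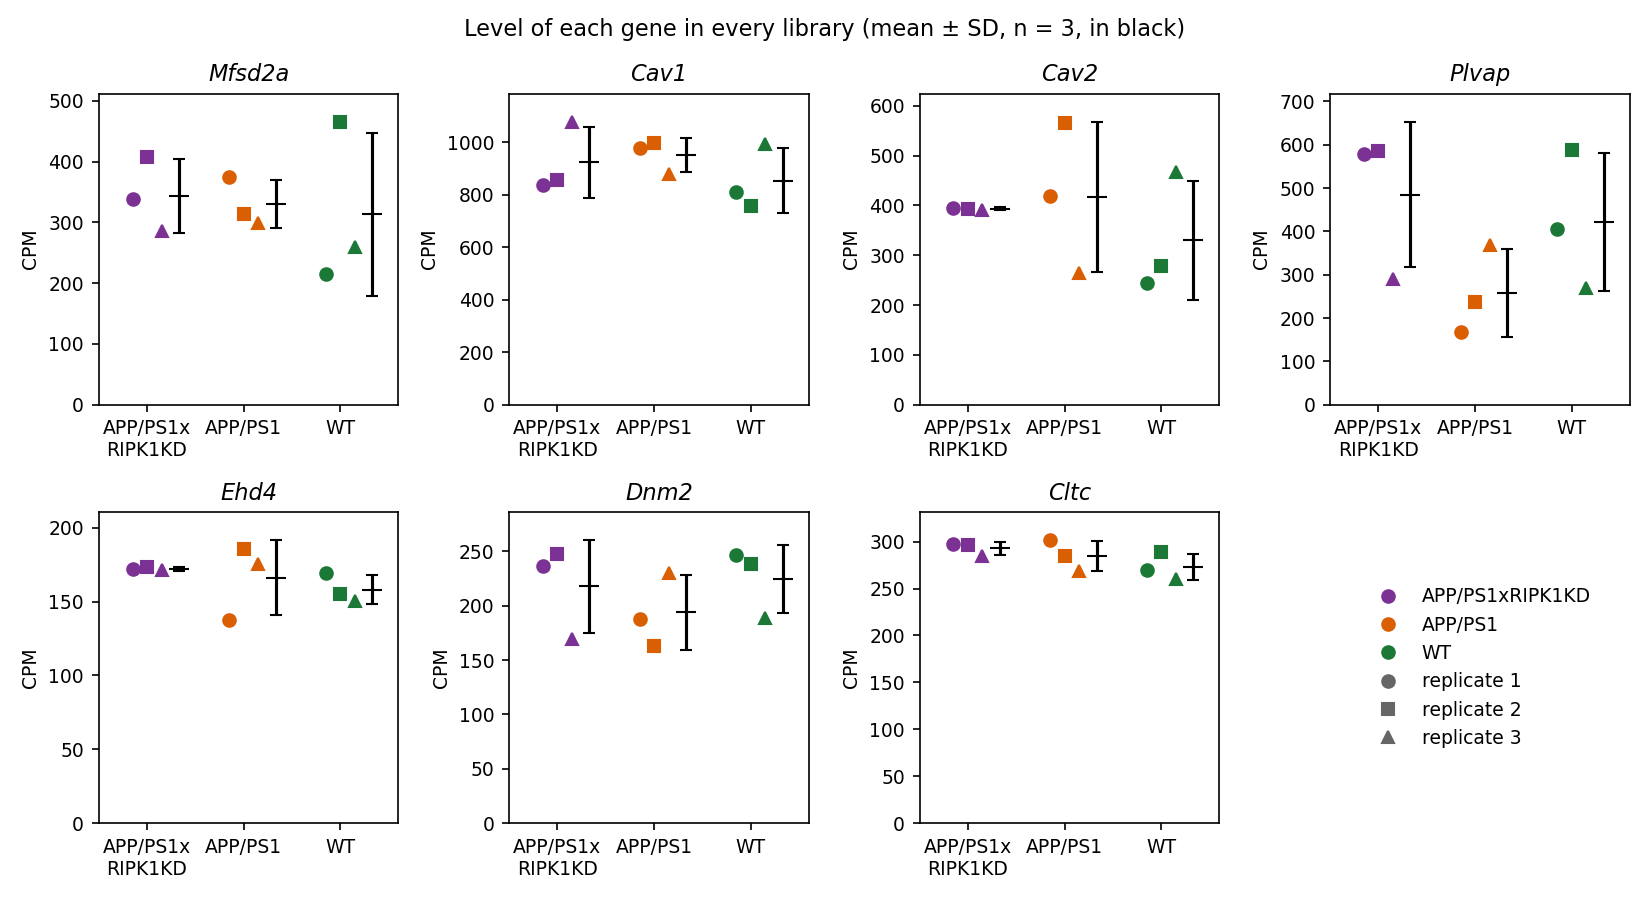
Level of each gene in CPM (vertical axis, linear) in the 3 APP/PS1xRIPK1KD, 3 APP/PS1 and 3 WT libraries; points are libraries, with a marker shape per replicate number, and bars are the mean and SD. The groups overlap for every gene except Ehd4, whose APP/PS1xRIPK1KD libraries (171 to 174 CPM) sit above the WT libraries (150 to 169 CPM).

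A test for any difference among the 3 genotypes called 0 of 7 genes (0.0451% of all tested), with Plvap lowest at an edgeR p of 0.0865 and the others at 0.449 or more. At an unadjusted edgeR p under 0.05 there were 0 of 7 for APP/PS1 against WT (6.14% of all), 1 of 7, Plvap, for APP/PS1xRIPK1KD against APP/PS1 (4.78% of all), and 0 of 7 for APP/PS1xRIPK1KD against WT (6.18% of all). DESeq2 and limma-voom also called 0 of 7 in each comparison. The authors' deposited table, which covers APP/PS1 against WT only and has 26 of 12460 genes under an FDR of 0.05, gave Mfsd2a 0.08, Cav1 0.15, Cav2 0.31, Ehd4 0.07, Dnm2 -0.21 and Cltc 0.08 as log2 fold changes, none under that FDR.

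**Figure D2:**
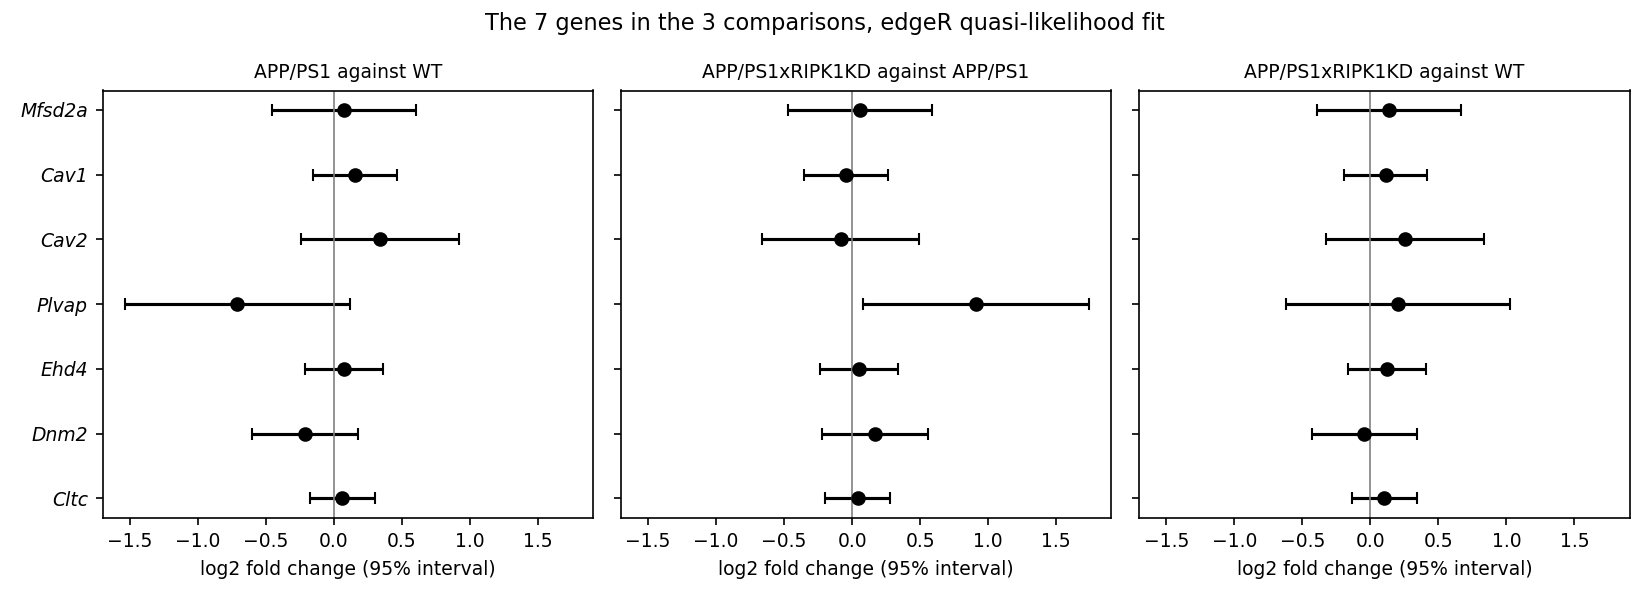
Log2 fold change of each gene (horizontal axis) for the 3 comparisons, with points for the edgeR estimate and bars for the 95% interval. Every interval includes 0 except that of Plvap for APP/PS1xRIPK1KD against APP/PS1, at 0.91, which did not pass the adjusted threshold.

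The ratio of the transport gene to the vesicle genes within a library needs no scaling between libraries, and it overlapped between genotypes for each pair. The log2 ratio of Mfsd2a to Plvap was -0.78, -0.52 and -0.03 in APP/PS1xRIPK1KD, 1.17, 0.41 and -0.30 in APP/PS1 and -0.92, -0.34 and -0.06 in WT. Thus 2 of 3 APP/PS1 libraries had more Mfsd2a than Plvap counts, and no library of the other genotypes did. Those libraries, APP/PS1 replicates 1 and 2, had slopes on transcript GC, described below, of -0.150 and -0.241. APP/PS1 replicate 3 had a slope of 0.140. A ratio within a library does not remove a difference in that slope, and its part in the ratio was not tested. The difference in mean was 0.86 for APP/PS1 against WT and -0.87 for APP/PS1xRIPK1KD against APP/PS1, each with a 2-sided exact permutation p of 0.2, where 3 against 3 libraries cannot go below 0.1. The log2 ratio of Mfsd2a to Cav1 differed by -0.01, 0.10 and 0.09 for APP/PS1 against WT, APP/PS1xRIPK1KD against APP/PS1 and APP/PS1xRIPK1KD against WT, with exact permutation p-values of 1, 0.8 and 0.9. That of Cav1 to Cav2 differed by -0.16, -0.04 and -0.20, with exact permutation p-values of 0.8, 0.9 and 0.6. These 9 ratio comparisons were not adjusted for their number, since none could reach 0.05. Leaving out each library in turn, the difference in the Mfsd2a to Plvap ratio ran over 0.49 (without APP/PS1 replicate 1) to 1.22 (without APP/PS1 replicate 3) for APP/PS1 against WT, and over -1.23 (without APP/PS1 replicate 3) to -0.50 (without APP/PS1 replicate 1) for APP/PS1xRIPK1KD against APP/PS1.

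Levels of different genes were compared per kilobase of union exon (all exon bases of a gene merged). Over the 9 libraries Cav1 was highest at 264 ± 30.8 CPM per kb, then Plvap at 195 ± 81.7, Mfsd2a at 146 ± 34.4, Cav2 at 114 ± 31.2, Ehd4 at 41.3 ± 3.71, Dnm2 at 39.8 ± 6.45 and Cltc at 33.4 ± 1.67 (SD, n = 9). Neighbours in this order overlapped in range, except Cav2, whose lowest library was at 73.3 CPM per kb, and Ehd4, whose highest was at 46.4 CPM per kb. The caveolins, Plvap and Mfsd2a thus stood above the scission and clathrin genes in every library. With the longest transcript as the length, Dnm2 was at 60.4 CPM per kb and passed Ehd4 at 44.4 CPM per kb.

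**Figure D3:**
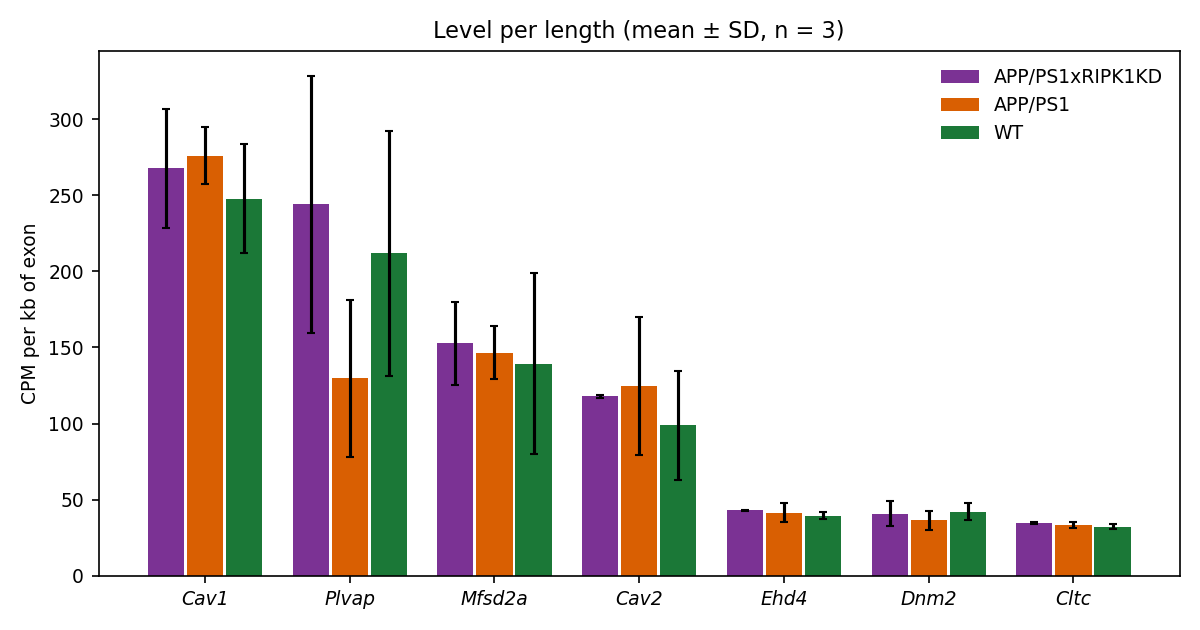
Level in CPM per kilobase of union exon (linear axis) for the 7 genes; bars are the means of the APP/PS1xRIPK1KD, APP/PS1 and WT libraries and error bars the SD (n = 3 each). Cav1, Plvap, Mfsd2a and Cav2 lie at 73.3 CPM per kb or more in every library, and Ehd4, Dnm2 and Cltc at or below 46.4 CPM per kb.

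Across libraries, Cav1, Plvap and Dnm2 split the 9 in the same way, and the split crossed the genotypes. APP/PS1xRIPK1KD replicate 3, APP/PS1 replicates 1 and 2 and WT replicate 3 had Cav1 at 979 to 1077 CPM, against 758 to 877 CPM in the other 5 libraries. The same 4 libraries, whose common feature was seen in the data, had Dnm2 at 163 to 189 CPM, against 231 to 247 CPM, and Plvap at 167 to 291 CPM, against 369 to 588 CPM. Cav1 was thus high where Dnm2 and Plvap were low. Because the libraries fall into these clusters, no pooled correlation is given for the 15 pairs with Cav1, Plvap or Dnm2. Of the other 6 pairs, Mfsd2a and Cltc had a Pearson r of 0.72 (Spearman 0.73) over 9 libraries in log2 CPM, and the other 5 pairs lay between -0.21 and 0.25. These are descriptions over libraries that share preparation and depth.

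**Figure D4:**
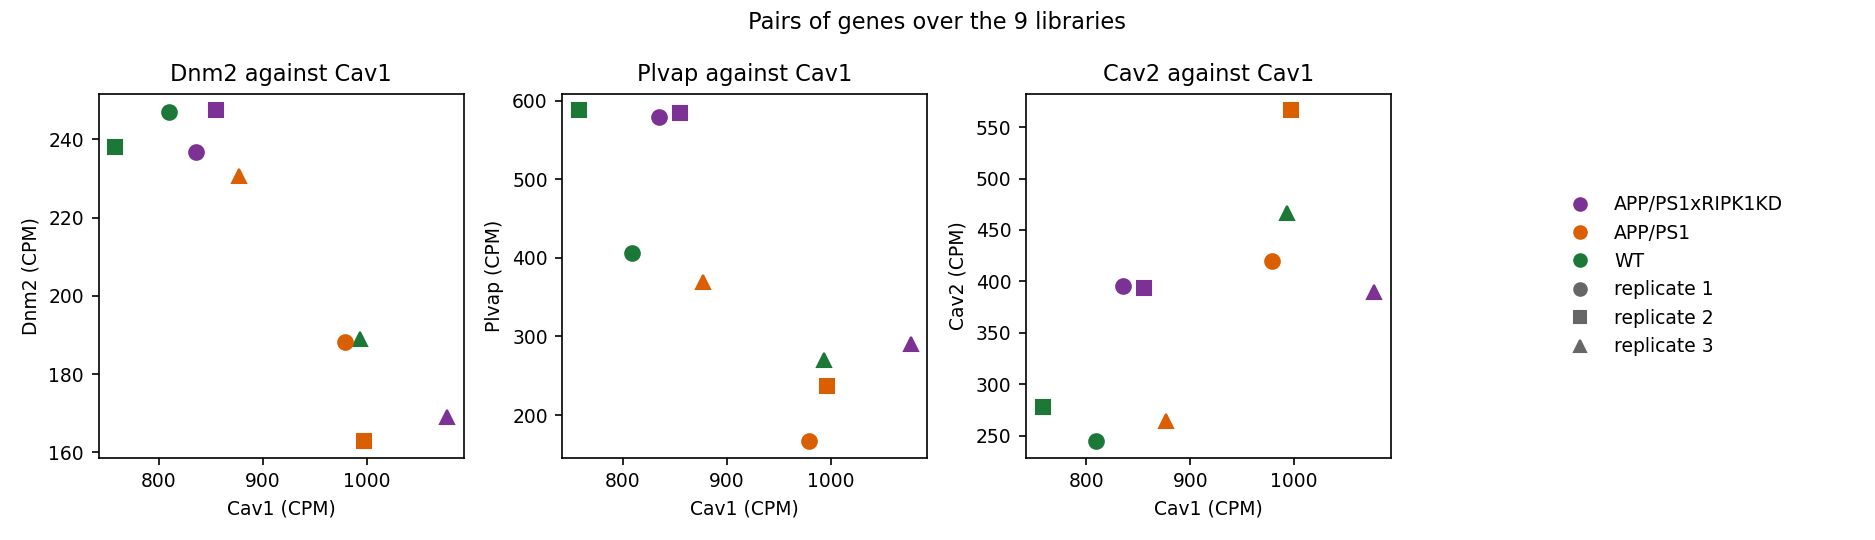
Levels of Dnm2, Plvap and Cav2 against that of Cav1, in CPM (axes do not start at 0), in the 9 libraries, coloured by genotype and with a marker shape per replicate number. In the pair of Cav1 and Dnm2, the 4 libraries with Cav1 at 979 CPM or more have Dnm2 at 189 CPM or less.

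This split coincided with a property of the whole library, the slope of expression on transcript GC content. The slope was the regression, over 9668 genes of at least 5 CPM other than the 7, of a gene's log2 CPM relative to its mean over libraries on the GC percentage of its longest transcript, per 10 points of GC. The slope lay between -0.241 and -0.0266 in the 4 libraries above and between 0.0119 and 0.167 in the other 5. Transcript GC was 37.5% for Cav2, 42.6% for Cav1, 43.6% for Cltc, 51.4% for Ehd4, 54.2% for Mfsd2a, 57.2% for Dnm2 and 60.6% for Plvap. Cav1 was higher and Dnm2 and Plvap lower in the 4 libraries of negative slope, with no overlap. Cltc, close to Cav1 in GC, overlapped between them at 261 to 301 CPM in the libraries of negative slope and 269 to 298 CPM in those of positive slope, and so did Cav2, Mfsd2a and Ehd4. For those 4 genes the Pearson r of log2 CPM with the slope over 9 libraries was -0.92 for Cav2, -0.36 for Cltc, -0.15 for Mfsd2a and 0.07 for Ehd4, as a description over libraries that share preparation. The median r over the 9668 genes that gave the slope was -0.37 under 45% GC and 0.41 at 55% GC and over. Opposite signs at low and high GC follow from that fit and are no separate result. Of 9726 genes of at least 5 CPM, 4.33% did not overlap between libraries of negative and positive slope, as Cav1, Dnm2 and Plvap did not. The negative slopes fell in 1 APP/PS1xRIPK1KD, 2 APP/PS1 and 1 WT library. Among the 6 libraries with Xist, the APP/PS1 libraries had slopes of -0.150 and -0.241. The WT libraries there had 0.167 and 0.111, and the APP/PS1xRIPK1KD libraries 0.0119 and 0.0222. In the 3 libraries with Y-linked transcripts the signs were reversed, at 0.140 in APP/PS1, -0.0266 in WT and -0.0345 in APP/PS1xRIPK1KD. Genotype and slope therefore cannot be told apart in the values from the libraries with Xist alone.

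With the slope as a covariate, an alternative added after the data were seen, the log2 fold change of Plvap was 0.71 ± 0.33 (SE) for APP/PS1xRIPK1KD against APP/PS1 and -0.26 ± 0.37 for APP/PS1 against WT. That of Cav2 for APP/PS1 against WT was -0.20 ± 0.15, where without the covariate it was 0.34 ± 0.27. None of the 7 genes was called with or without it. How much of any difference comes with the slope was not tested further.

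**Figure D5:**
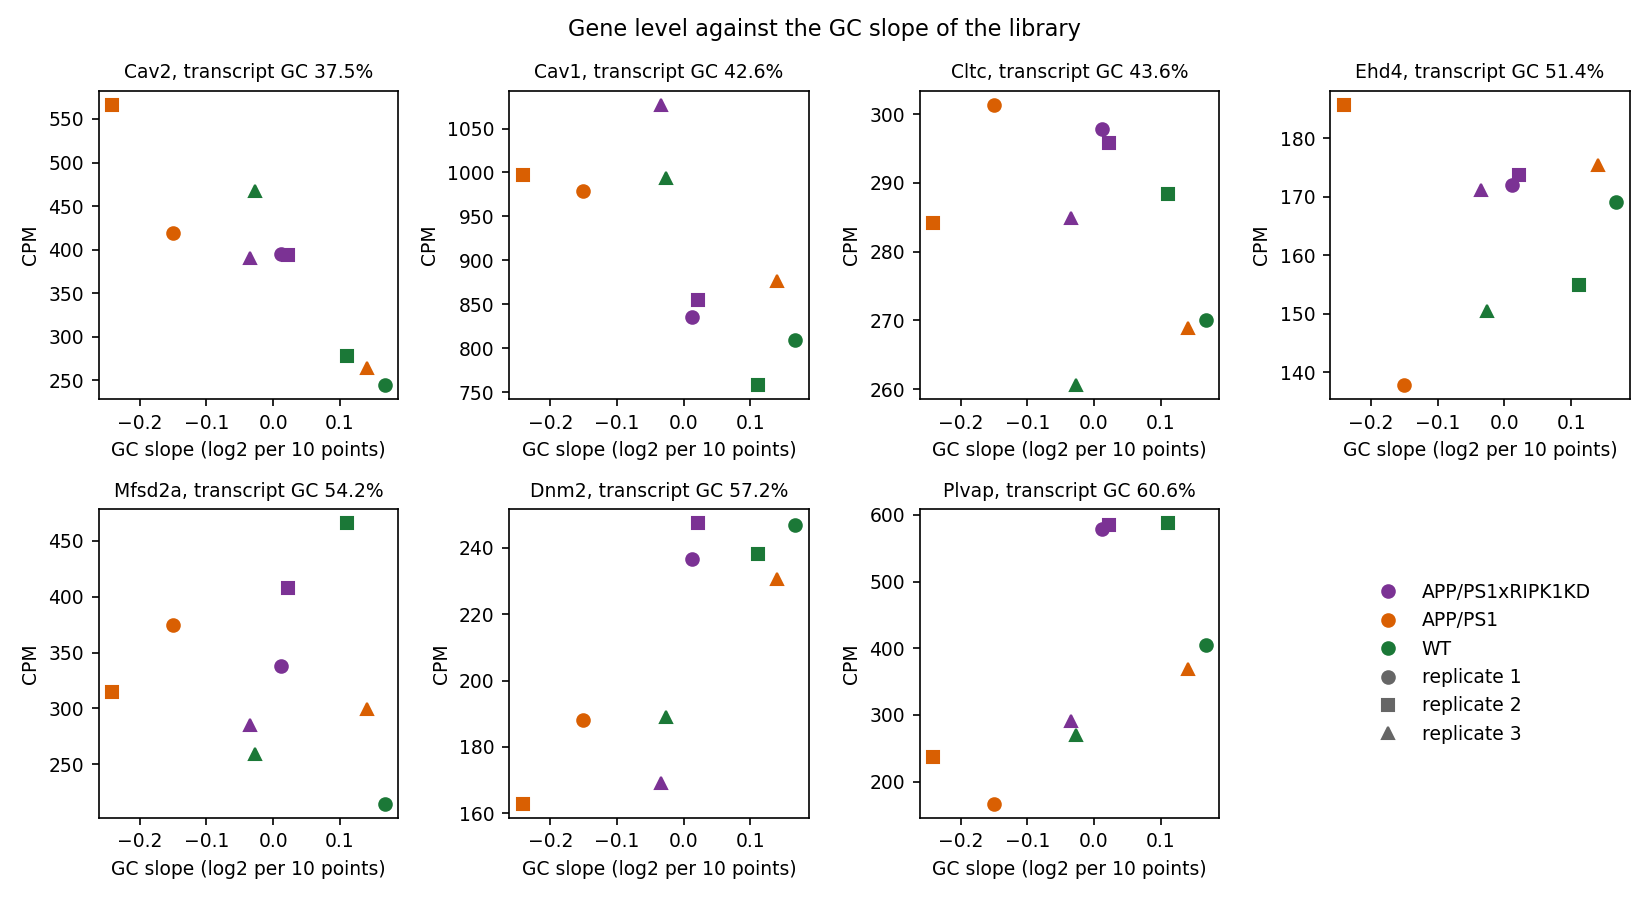
Level of each gene in CPM (axes do not start at 0) against the library's slope of expression on transcript GC (log2 units per 10 points of GC), with points for the 9 libraries coloured by genotype. Cav2 falls with the slope (r = -0.92), and Dnm2 is at 189 CPM or less in the 4 libraries of negative slope and at 231 CPM or more in the other 5.

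The genes most like each of the 7, by Pearson r of log2 CPM over the 9 libraries among 9725 genes of at least 5 CPM, were named by rule and are a description of the same spread, which for Cav1, Plvap and Dnm2 includes the split of the libraries above. Plvap was closest to Ppap2b (r = 0.98), the older symbol of Plpp3, a lipid phosphatase, then to Scarb1 (0.98), the HDL receptor, and Xylt2 (0.96). Dnm2 was closest to Scaf1 (0.97), Tie1 (0.97), an endothelial receptor, and Tspan9 (0.95). Cav2 was closest to 2810407C02Rik (0.98), Tmf1 (0.97) and Actr2 (0.97). Cav1 was closest to Fam199x (0.95), Wrb (0.93) and Mcfd2 (0.93), and Cltc to Copb1 (0.93), a coat protein of Golgi vesicles, Snai2 (0.93) and Slc16a1 (0.92). Mfsd2a was closest to 6430706D22Rik (0.93), Eif2c3 (0.92) and Zfp777 (0.91), and Ehd4 to Atp5k (0.98), Aatf (0.92) and Prkag1 (0.91). In the order named, transcript GC was 50.1%, 48.5% and 60.4% for the genes closest to Plvap and 63.0%, 57.6% and 55.3% for Dnm2. It was 39.3%, 39.7% and 40.3% for Cav2, 38.4%, 49.4% and 49.1% for Cav1 and 42.6%, 42.6% and 42.9% for Cltc. For Mfsd2a it was 50.2%, 41.8% and 59.1%, and for Ehd4 55.8%, 49.7% and 52.8%. The GC of the 7 genes themselves is given above.

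The wider pathway gave the same count as the 7 genes. Of 101 genes in 7 lists for the caveolar coat, clathrin-coated pits, scission and uncoating, endosomes and docking, transcytosis receptors, Mfsd2a lipid supply and caveolar signalling, 97 were tested, and they held 6 of the 7 genes above, all but Plvap. None of the 97 was called by edgeR in any of the 3 comparisons. At an unadjusted p under 0.05, 6 were higher and 3 lower for APP/PS1 against WT, 3 were higher and 0 lower for APP/PS1xRIPK1KD against APP/PS1, and 4 were higher and 1 lower for APP/PS1xRIPK1KD against WT. Those are 9.28%, 3.09% and 5.15% of the lists, beside the 6.14%, 4.78% and 6.18% of all genes. With Plvap added the count for APP/PS1xRIPK1KD against APP/PS1 was 4 of 98 (4.08%). The median log2 fold changes were -0.0025, 0.03 and 0.04 beside 0.0019, -0.0034 and 0.0031 over all genes tested.

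In the caveolar coat Ptrf, Sdpr and Prkcdbp were abundant, Murc (cavin 4) was near 0 at 0.531 CPM in APP/PS1xRIPK1KD, 0.581 CPM in APP/PS1 and 0.892 CPM in WT on average, and no cavin passed the test. Ptrf (cavin 1) had 839 ± 88.8 CPM in APP/PS1xRIPK1KD, 889 ± 120 CPM in APP/PS1 and 953 ± 129 CPM in WT, with no fold change past the threshold. Sdpr (cavin 2) had 621 ± 67.3 CPM in APP/PS1xRIPK1KD, 668 ± 128 CPM in APP/PS1 and 667 ± 47.1 CPM in WT. Ehd2, the ATPase of the caveolar neck, had 267 ± 24.4 CPM in APP/PS1xRIPK1KD, 235 ± 103 CPM in APP/PS1 and 233 ± 21.9 CPM in WT, and the muscle caveolin Cav3 was at 0 in all 9 libraries (SD, n = 3 each), where a count of 0 allows up to 0.0541 to 0.189 CPM (3 counts per library). Prkcdbp (cavin 3) had 179 ± 32.5 CPM in APP/PS1xRIPK1KD, 209 ± 48.6 CPM in APP/PS1 and 228 ± 37.8 CPM in WT, a log2 fold change of -0.35 ± 0.19 (SE) for APP/PS1xRIPK1KD against WT. Flot1 (flotillin 1) had 67.8 ± 10.8 CPM in APP/PS1xRIPK1KD, 69.3 ± 9.66 CPM in APP/PS1 and 91.5 ± 16.4 CPM in WT. Its log2 fold change was -0.43 ± 0.17 for APP/PS1xRIPK1KD against WT (adjusted p = 0.749) and -0.40 ± 0.17 for APP/PS1 against WT (adjusted p = 0.795), and the libraries of both APP/PS1-bearing genotypes lay wholly under the WT libraries. Of all tested genes, 12% and 10.9% did not overlap in these comparisons, in either direction. The share without overlap in both at once was not counted.

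Among the clathrin genes, for APP/PS1 against WT, the adaptor subunit Ap2a1 had a log2 fold change of -0.57 ± 0.20 (SE), the scaffold Itsn1 0.65 ± 0.28 and the assembly protein Picalm 0.34 ± 0.15, with no adjusted p under 0.787. Of the uncoating genes, the chaperone Hspa8 had 2466 ± 740 CPM in APP/PS1xRIPK1KD, 2632 ± 640 CPM in APP/PS1 and 1809 ± 135 CPM in WT, an APP/PS1 against WT value of 0.54 ± 0.21. Of the endosome genes, the retromer subunit Vps35 had 133 ± 9.13 CPM in APP/PS1xRIPK1KD, 142 ± 11.3 CPM in APP/PS1 and 100.4 ± 12.2 CPM in WT. Its log2 fold change was 0.50 ± 0.13 for APP/PS1 against WT (edgeR adjusted p = 0.751) and 0.41 ± 0.13 for APP/PS1xRIPK1KD against WT (adjusted p = 0.640). Every library of both APP/PS1-bearing genotypes lay above every WT library in Vps35, but neither value passed the threshold. Of the 97 list genes, 9.28% were without overlap for APP/PS1 against WT and 13.4% for APP/PS1xRIPK1KD against WT, beside 10.9% and 12% of all tested genes. These shares are for either direction and for each comparison alone. The tether Eea1 had 0.42 ± 0.16 for APP/PS1 against WT.

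Among the receptors, the transferrin receptor Tfrc had 318 ± 70.4 CPM in APP/PS1xRIPK1KD, 296 ± 54.8 CPM in APP/PS1 and 208 ± 65.4 CPM in WT (SD, n = 3 each). Its log2 fold change was 0.61 ± 0.23 (SE) for APP/PS1xRIPK1KD against WT and 0.51 ± 0.23 for APP/PS1 against WT, and its libraries overlapped. Alpl, alkaline phosphatase, had 752 ± 37.5 CPM in APP/PS1xRIPK1KD, 649 ± 70.6 CPM in APP/PS1 and 889 ± 253 CPM in WT, and its value of -0.45 ± 0.17 for APP/PS1 against WT did not pass (adjusted p = 0.787). In the lipid list, Acsl3, an acyl-CoA synthetase, had 57.9 ± 13.3 CPM in APP/PS1xRIPK1KD, 39.6 ± 5.87 CPM in APP/PS1 and 41.5 ± 5.20 CPM in WT. Gpihbp1, which anchors lipoprotein lipase on capillaries, had 19.1 ± 3.50 CPM in APP/PS1xRIPK1KD, 10.03 ± 4.61 CPM in APP/PS1 and 15.9 ± 3.51 CPM in WT, a log2 fold change of 0.92 ± 0.34 for APP/PS1xRIPK1KD against APP/PS1. Gpihbp1 is also in the list for fenestrated or peripheral endothelium above.

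Of the genes tied to caveolar signalling, Kdr, the VEGF receptor, had 527 ± 137 CPM in APP/PS1xRIPK1KD, 335 ± 33.6 CPM in APP/PS1 and 404 ± 95.8 CPM in WT, a log2 fold change of 0.65 ± 0.21 (SE) for APP/PS1xRIPK1KD against APP/PS1. The chaperone Hsp90aa1 had 390 ± 107 CPM in APP/PS1xRIPK1KD, 432 ± 97.7 CPM in APP/PS1 and 251 ± 14.9 CPM in WT. Its log2 fold change of 0.79 ± 0.20 for APP/PS1 against WT had an adjusted p of 0.707 in edgeR and 0.0311 in DESeq2, the 1 call among the lists by that tool. The level of the dissociation response genes, which do not include Hsp90aa1 or Hspa8, is given above by genotype, and its part in these values was not tested.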

How the data were processed

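Polyadenylated RNA from sorted brain endothelial cells (CD31+CD45-) was sequenced as 9 Smart-seq2 libraries, 3 per genotype. Per the submitters' processing notes, Bowtie 0.12.2, RSEM and edgeR 3.10.2 were used with mm10/GRCm38. Which annotation was counted is not given in those sources. The authors deposited RSEM expected counts per gene, of which 28.3% of values were not whole, and a table for APP/PS1 against WT holding log2 fold changes, log2 CPM, a likelihood ratio score, p-values and FDR, used here only where it is named. Without molecular identifiers, counts are not independent molecules, and no strand information was given, so reads of overlapping antisense genes cannot be told apart. Columns were matched to samples by their numbers, which the labels repeat.

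Expected counts were rounded. Genes were filtered with filterByExpr (10 counts, 15 in total), scaled by TMM and fitted over all 9 libraries in edgeR 4.0.16 (R 4.3.3; robust quasi-likelihood, genotype only), with Benjamini-Hochberg adjustment over 13317 genes and a threshold of 0.05. Alternatives were DESeq2 1.42.0, limma 3.58.1 (voom), other size factors, no filter, no Rn45s, a replicate block, replicates 1 and 2 only, pairwise fits, each library left out, and the GC slope. Log2 CPM used a prior count of 2, and log2 ratios a pseudocount of 0.5. Exon length, GC and positions came from GENCODE M21 on GRCm38 (98.4% of genes matched). Scripts were tested on simulated data. The numbers were not used as pairs in the main fit, since the labels tie them to no litter or day. Correlations of the deviations of same-numbered libraries stayed under 0.1, which cannot exclude a factor shared by those libraries. Marker genes Plpp3 and Ackr1 were read under their older symbols Ppap2b and Darc (RefSeq synonyms). Figures used matplotlib 3.10.9.

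The genes and lists were chosen with earlier results of these data known. The text names all 7 genes, for each list the 3 genes of smallest p per comparison among those of at least 5 CPM, or a selection of these, and the 3 genes most correlated with each of the 7. Other cavins, Ehd2 and Cav3 were named after their values were seen.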

Additional observations from a re-analysis of the deposited data

How the results depend on the processing

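No setting called any of the 7 genes in any comparison: of 315 recomputed log2 fold changes 293 kept their sign and 22, all of them values that passed no threshold in either setting, did not. DESeq2 called 1 gene of the pathway lists for APP/PS1 against WT (Hsp90aa1), where edgeR called 0. With replicates 1 and 2 only, Ehd4 for APP/PS1 against WT was -0.00067 and the Cav1 to Cav2 log2 ratio for APP/PS1xRIPK1KD against APP/PS1 0.0800. With the GC slope as a covariate, chosen after seeing the data, Cav2 and Dnm2 for APP/PS1 against WT were -0.201 and 0.0435, Cav1 and Cav2 for APP/PS1xRIPK1KD against APP/PS1 were 0.0272 and 0.244, and Dnm2 for APP/PS1xRIPK1KD against WT was 0.0892. The cause was not tested. Over all tested genes, calls for APP/PS1 against WT, APP/PS1xRIPK1KD against APP/PS1 and APP/PS1xRIPK1KD against WT numbered 3, 1 and 5 in edgeR, 45, 20 and 63 in DESeq2, 2, 0 and 2 in limma-voom and 7, 1 and 14 without the filter. With the longest transcript as length, WT levels per kb were 311 for Cav1, 42.4 for Ehd4, 64.0 for Dnm2 and 41.9 for Cltc.

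Leaving out each library in turn, the log2 fold change for APP/PS1 against WT ran over -0.14 to 0.48 for Mfsd2a and -0.017 to 0.19 for Ehd4. For APP/PS1xRIPK1KD against APP/PS1 it ran over -0.073 to 0.18 for Mfsd2a, -0.165 to 0.0300 for Cav1, -0.33 to 0.21 for Cav2 and -0.068 to 0.15 for Ehd4. For APP/PS1xRIPK1KD against WT it ran over -0.075 to 0.54 for Mfsd2a, -0.0070 to 0.24 for Cav1, -0.15 to 0.12 for Dnm2 and -0.035 to 0.52 for Plvap. The Mfsd2a to Cav1 log2 ratio ran over -0.22 to 0.39, -0.078 to 0.35 and -0.12 to 0.50 for the 3 comparisons in that order, the Cav1 to Cav2 ratio over -0.40 to 0.056 and -0.26 to 0.20 for the first and the second, and the Mfsd2a to Plvap ratio over -0.24 to 0.19 for the third.

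Replicate numbers are shared by the genotypes, and replicates 1 and 2 had Xist while replicate 3 had Y-linked transcripts in each, though the labels tie no number to a litter or day. The libraries were not treated as pairs in the main fit. Deviations of same-numbered libraries correlated at -0.019 to 0.098 and of others at -0.10 to 0.082. Such correlations over all genes cannot exclude a factor that acts on some genes. With the replicate block, 0 of 7 genes were called in each comparison, and calls over all genes numbered 2 for APP/PS1 against WT, 0 for APP/PS1xRIPK1KD against APP/PS1 and 0 for APP/PS1xRIPK1KD against WT. Plvap was -0.63 for APP/PS1 against WT and 0.86 for APP/PS1xRIPK1KD against APP/PS1 in that fit.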
